A study of Mus musculus with 10 samples.

Results

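The genes described here are 8 members of the PD-1 pathway and of other inhibitory immune checkpoints, picked by symbol from the 31053 genes of the tables. Of these, 6 encode receptors (Pdcd1, Lag3, Havcr2, Tigit, Cd96 and Vsir) and 2 encode the ligands of PD-1 (Cd274 and Pdcd1lg2). Their RNA was counted in E0771 breast tumors, grown from a mouse mammary carcinoma line in immune-competent C57BL/6 mice, by droplet single-cell RNA sequencing, which tags each RNA molecule with a unique molecular identifier (UMI). There were 5 libraries from WT littermates and 5 from EC-AGO1-KO mice, in which a Cre under the VE-Cadherin (Cdh5) promoter deletes floxed AGO1 in endothelial cells. All hosts were 16-week-old females with E0771 cells in the fourth mammary fat pad, and tumors were taken at day 21. The same E0771 cells, with AGO1 not deleted, were injected in both groups. AGO1 is a component of the RNA-induced silencing complex. Ago1 had no UMI in the 78 WT and 135 KO endothelial-like cells, which allows up to 42.5 to 58.9 CPM, so the deletion could not be checked in them. Over all cells it was at 4.97 to 7.21 CPM in WT libraries and 4.97 to 7.96 CPM in KO libraries.

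The 5 KO libraries held 7 tumors, since KO 2+3 and KO 5+6 were pools of 2 tumors each. The labels give 2 batches, run on different sequencers, and batch 1 had a single library per group while batch 2 had 4 per group. With 200 to 7000 genes and no more than 10% mitochondrial UMIs required of a barcode, 65298 cells remained (34946 WT, 30352 KO). Library totals were 8996308 to 10591577 UMIs in WT and 8323896 to 9670136 in KO. Median depth was 3862 to 4049 UMIs per cell in batch 1 and 595 to 1142 in batch 2. At most 28 cell barcodes were shared by any pair of the 10 libraries. Levels are given as CPM, the UMIs of a gene scaled to 1000000 UMIs of the cell class in that library, with Actb left out of the totals because it took 2.12% of UMIs in batch 1 and 12.6% in batch 2. Intervals and limits below cover counting error only.

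Checkpoint receptors sit on activated lymphocytes and, when bound by ligand, dampen signals from the T cell receptor and costimulatory receptors. PD-1 is the receptor of PD-L1 and PD-L2, which macrophages, dendritic cells and tumor cells can display. Interferon-gamma, released by activated T cells, is the best known inducer of PD-L1, through JAK kinases and IRF1. LAG-3 binds MHC class II among other ligands, TIM-3 (Havcr2) is also carried by myeloid cells, TIGIT and CD96 bind poliovirus receptor family members, and VISTA (Vsir) is found mainly on myeloid cells.

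All 8 genes were sparse. In all cells together Pdcd1 had 61 UMIs, Cd96 61, Pdcd1lg2 114, Lag3 126, Tigit 189, Vsir 584, Cd274 678 and Havcr2 1327. Cells were grouped into classes from marker genes, with the 8 members kept out of the clustering. The classes used below were T-like (1367 cells), myeloid-like (2144 cells), dendritic-like (203 cells) and tumor-like cells (54848 cells), and 4136 cells were left unnamed. T-like cells had UMIs of 11 of 11 T cell markers in both groups, summing to 3099 to 5527 CPM per library in WT and 3702 to 6040 in KO. They also held NK cell markers, at 66.6 to 2031 CPM in WT and 153 to 2105 CPM in KO. Dendritic-like cells had 7 of 7 markers of mature migratory dendritic cells, while Xcr1, Clec9a, Cd209a and Siglech, markers of other dendritic subsets, were at 0. Tumor-like cells also had UMIs of 7 of 7, so presence alone does not set the class apart. In dendritic-like cells a list of 10 dendritic markers summed to 2564 to 6178 CPM per library in WT and 4030 to 7950 CPM in KO. In tumor-like cells the same list summed to 257 to 1267 CPM in WT and 268 to 970 CPM in KO.

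The receptors Pdcd1, Tigit and Cd96 were highest in T-like cells. The ligand Pdcd1lg2 was highest in dendritic-like cells, and so was the mean of Cd274 over all libraries, though in batch 2 pooled Cd274 was at 148 CPM in myeloid-like and 136 CPM in dendritic-like cells. Havcr2 was shared by T-like and myeloid-like cells, and Vsir was highest in myeloid-like cells. Tigit was at 113 CPM ± 64.0 (SD, n = 10 libraries) in T-like cells and the next class, dendritic-like cells, was at 4.57 CPM ± 14.4 (SD, n = 10). It was higher in T-like cells in 9 of 10 libraries. Cd96 was at 44.8 CPM ± 30.6 (SD, n = 10) in T-like cells, above the 1.95 CPM ± 6.15 (SD, n = 10) of myeloid-like cells in 9 of 10 libraries. For Pdcd1 the T-like level was 61.1 CPM ± 56.7 (SD, n = 10), and the step to dendritic-like cells (22.9 CPM, from 1 library) was smaller than its spread.

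Havcr2 was at 525 CPM ± 262 (SD, n = 10) in T-like and 486 CPM ± 279 (SD, n = 10) in myeloid-like cells, a step far smaller than the SD of the within-library difference (232 CPM). Below these came B-like cells at 51.7 CPM, and myeloid-like cells were higher in all 6 libraries with both classes. Lag3 reached 42.3 CPM ± 35.4 (SD, n = 10) in T-like cells, and epithelial-like cells at 22.2 CPM did not differ from them beyond the spread. Vsir was at 54.2 CPM ± 44.6 (SD, n = 10) in myeloid-like and 19.7 CPM ± 23.8 (SD, n = 10) in T-like cells, again within the spread.

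Cd274 ranked in the order dendritic-like (211 CPM ± 254, SD, n = 10), myeloid-like (139 CPM ± 58.7, SD, n = 10), B-like (87.3 CPM, n = 6) and T-like cells (49.4 CPM ± 30.8, SD, n = 10). No neighbours in this order differed by more than the SD of their difference. Tumor-like cells stood at 3.45 CPM ± 1.25 (SD, n = 10). Pdcd1lg2 was at 103 CPM ± 105 (SD, n = 10) in dendritic-like cells, followed by B-like (17 CPM), myeloid-like (16.8 CPM) and T-like cells (14.5 CPM), and no pair of these neighbours differed beyond the spread.

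**Figure D1:**
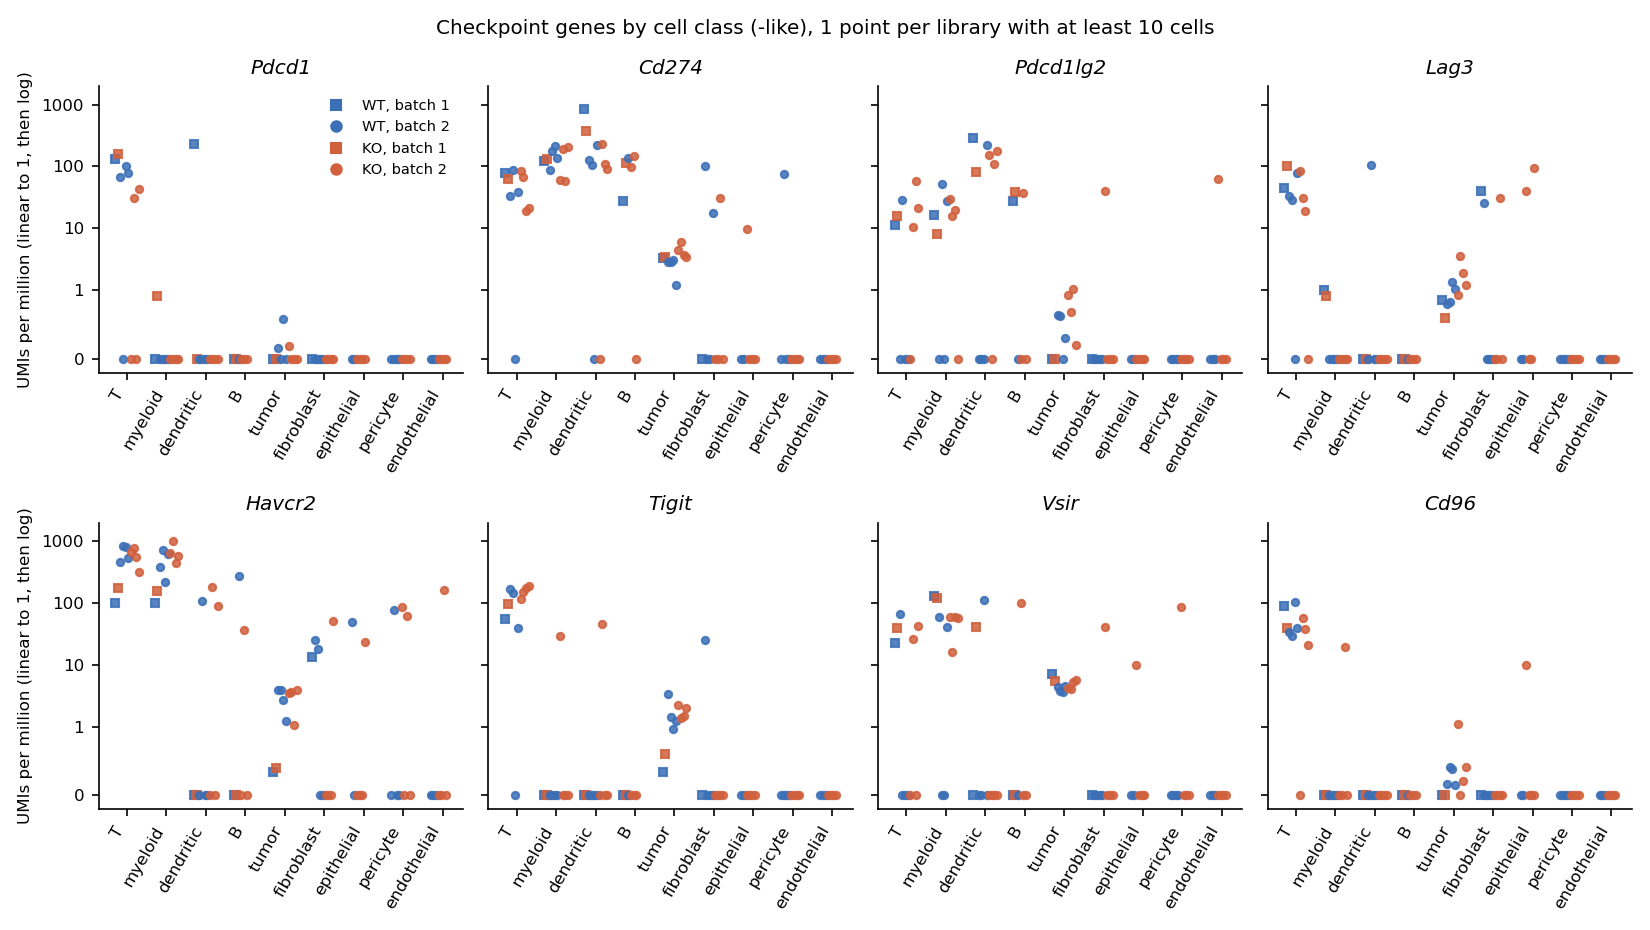
Levels of the 8 genes by cell class (CPM) in each batch. T-like cells hold the highest Pdcd1, Tigit and Cd96, and Pdcd1lg2 is highest in dendritic-like cells. Cd274 in dendritic-like cells is at 577 CPM in batch 1 and 136 CPM in batch 2, where myeloid-like cells are at 148 CPM.

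Because tumor-like cells are so many, their low levels still made up a large part of the UMIs of some receptors in batch 2. They held 45.5% of all Tigit UMIs and 61.5% of Lag3 UMIs there, at levels of 1.79 and 1.39 CPM. Barcodes with at most 50 UMIs, which hold mostly free RNA, had 5.21 CPM of Tigit and 2.38 CPM of Lag3 in batch 2, both above tumor-like cells. The part of free RNA in these tumor-like levels was not tested. In T-like cells of batch 2 Tigit was at 146 CPM and Lag3 at 32.9 CPM. The same barcodes had 3.75 CPM of Pdcd1, 48.2 CPM of Havcr2, 13.9 CPM of Vsir and 19.3 CPM of Cd96, against 30.5, 663, 21.1 and 42.3 CPM in T-like cells. The intervals of Vsir met, since the T-like one ran from 9.67 to 40.1 CPM.

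Pdcd1 encodes PD-1, and its gene lies at chr1:94038305-94052553 (GRCm38, minus strand). In T-like cells its level was 133 CPM in WT and 158 CPM in KO in batch 1. In batch 2 it was 66.6, 0, 102 and 77.5 CPM in WT 1, 3, 4 and 5. It was 0, 31.5, 0 and 42.5 CPM in KO 1, KO 2+3, KO 4 and KO 5+6. The groups overlapped in batch 2 because WT 3 had no UMI, and 1 UMI or a few stood behind each value, with 13 UMIs over all 8 libraries. The KO mean lay 29.5 CPM below the WT mean (46.3 ± 65.1 against 75.8 ± 49.5, SD, n = 5 each), a difference within the spread (exact two-sided permutation p = 0.229, labels permuted within batch). The KO library of batch 1 set the upper end of its group, and without batch 1 the difference was −43.0 CPM (exact permutation p = 0.171).

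Tigit encodes TIGIT, which competes with the costimulatory receptor CD226 for shared ligands. Its gene lies at chr16:43648867-43664146 (minus strand). The level in T-like cells was 55.5 CPM in WT and 94.6 CPM in KO in batch 1. In batch 2 it was 167, 144, 0 and 38.7 CPM in WT 1, 3, 4 and 5. It was 115, 152, 172 and 191 CPM in the KO libraries 1, 2+3, 4 and 5+6. The KO libraries lay closer together and above WT 4 and WT 5, but WT 1 and WT 3 fell among them. The batch 2 values rested on 11 UMIs in WT and 51 in KO, with pooled levels of 110 and 157 CPM. In WT 4 the T-like class had 35 cells with 9812 UMIs. Its value of 0 allows up to 306 CPM, above every KO value. The mean of the 5 WT libraries was 80.9 CPM ± 71.2 (SD) and that of the 5 KO libraries 145 CPM ± 39.9 (SD), higher by 63.9 CPM (exact permutation p = 0.129). Without WT 1 the difference was 83.6 CPM (exact permutation p = 0.0429), so this comparison turned on 1 library.

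Cd96 encodes a receptor of T and NK cells that also binds the poliovirus receptor (chr16:46035657-46120251, minus strand). It was at 88.8 CPM in WT against 39.4 CPM in KO in batch 1. In batch 2 the T-like level was 33.3, 28.8, 102 and 38.7 CPM in WT, and 0, 57.7, 38.2 and 21.2 CPM in KO. The groups overlapped. The batch 2 values rested on 4 UMIs in WT and 14 in KO. Pooled over batch 2 the level was 39.8 CPM in WT and 43.1 CPM in KO. The KO mean over the libraries of both batches went the other way, lower by 27.0 CPM (31.3 against 58.3 CPM, exact permutation p = 0.186). Without WT 4 the difference was −14.5 CPM (exact permutation p = 0.357), and at Leiden resolution 2 −50.8 CPM (exact permutation p = 0.0714).

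Lag3 lies at chr6:124904361-124911705 (minus strand). Its level in T-like cells was 44.4 CPM in WT and 103 CPM in KO in batch 1. In batch 2 it was 33.3, 28.8, 0 and 77.5 CPM in WT, and 85.9, 31.5, 19.1 and 0 CPM in KO. Both groups of batch 2 spanned nearly the same range. The difference of means was 11 CPM (exact permutation p = 0.7) and turned to −0.780 CPM with batch 2 alone.

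Havcr2, at chr11:46454935-46481255 (plus strand), had the most UMIs of the receptors in T-like cells, 313 in all. Its level was 99.9 CPM in WT and 173 CPM in KO in batch 1. In batch 2 it was 467, 834, 815 and 542 CPM in WT, and 659, 786, 553 and 319 CPM in KO. Levels differed far more between batches than between groups. The log2 fold change (KO over WT) was 0.02 with SE 0.25 (edgeR quasi-likelihood test with Benjamini-Hochberg adjustment, adjusted p = 0.996), and its sign changed under several settings. The difference of mean CPM was −53.6 (exact permutation p = 0.643). In batch 2 no receptor had all its KO libraries on one side of all WT libraries in T-like cells. Of 1896 genes with at least 50 UMIs there, 1.74% had KO above and 1% KO below WT. Pdcd1, Lag3, Vsir and Cd96 were under this limit, with 13, 14, 9 and 18 UMIs. Havcr2 was the sole member with enough counts to be tested by edgeR in T-like cells, and 0 of 864 genes were called there (0%), with 29 at an unadjusted p under 0.05 and 0 called by DESeq2.

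Vsir, at chr10:60346851-60372684 (plus strand), was seen in T-like cells of few libraries. It was at 22.2 CPM in WT against 39.4 CPM in KO in batch 1. In batch 2 it was at 66.6 CPM in WT 1, 26.2 CPM in KO 2+3, 42.5 CPM in KO 5+6 and 0 in the other 5 libraries. The means differed by 3.85 CPM (exact permutation p = 0.857).

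Marker levels of other cells in the T-like class are given beside these values. Summed over all 14 myeloid markers they were 400 to 1432 CPM in WT and 276 to 1057 CPM in KO, with Fcgr1 at 0 in KO. The 8 tumor markers summed to 1021 to 3567 CPM in WT and 915 to 2979 CPM in KO. Their part in the receptor levels was not tested.

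Within the T-like class the receptors were unevenly spread over the clusters. In batch 2, 1 cluster of 545 cells led by cytotoxic and NK cell markers had 758 CPM of Havcr2 (95% interval 639 to 893), 190 CPM of Tigit (133 to 262) and 63.2 CPM of Pdcd1 (32.7 to 110). Another of 408 cells with Ikzf2, Il2ra, Ctla4 and Icos, genes of regulatory T cells, had 841 CPM of Havcr2 (698 to 1006) and 161 CPM of Tigit (102 to 242). Its single Pdcd1 UMI gave 7.01 CPM (0.178 to 39.1). The third, 298 cells with Lef1 and Satb1, genes of resting T cells, had 193 CPM of Havcr2 (115 to 306) and 32.2 CPM of Tigit (6.65 to 94.2). It had no Pdcd1 UMI, which allows up to 32.2 CPM. These are descriptions of pooled cells.

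The T-like cells of batch 1 formed 1 cluster of 112 cells of their own, with 149 CPM of Pdcd1 and 79.1 CPM each of Lag3 and Tigit. Batch and cluster cannot be told apart for it. The pooled Pdcd1 level of all T-like cells was 148 CPM in batch 1 (17.2% of cells with a UMI, median depth 1230 UMIs) and 30.5 CPM in batch 2 (0.959% of cells, median depth 344 UMIs). In tumor-like cells, which should lack PD-1, the share in batch 2 was 0.00928%, at a median depth of 713 UMIs. In batch 1 it was 0 of 940 cells.

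The ligand genes lie side by side on chromosome 19, with Cd274 at chr19:29367455-29388095 and Pdcd1lg2 at chr19:29410919-29471161, both on the plus strand. Cd274 encodes PD-L1. Its promoter (RefSeq, GRCm38.p6, chr19:29367188-29367487, plus strand, 250 bases before to 50 after the start) is shown because interferon-regulated genes moved with Cd274 among tumor clusters, beside that of Rsad2 (chr12:26456403-26456702, minus strand), one of those genes. Capitals mark AANNGAAA, a core letter pattern bound by interferon regulatory factors, on either strand.
Cd274: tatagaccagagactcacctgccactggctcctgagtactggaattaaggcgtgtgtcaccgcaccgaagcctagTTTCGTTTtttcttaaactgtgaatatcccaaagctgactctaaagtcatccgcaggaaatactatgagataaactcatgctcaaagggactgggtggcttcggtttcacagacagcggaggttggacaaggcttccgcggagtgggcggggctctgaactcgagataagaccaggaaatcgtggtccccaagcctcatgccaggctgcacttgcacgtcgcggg
Rsad2: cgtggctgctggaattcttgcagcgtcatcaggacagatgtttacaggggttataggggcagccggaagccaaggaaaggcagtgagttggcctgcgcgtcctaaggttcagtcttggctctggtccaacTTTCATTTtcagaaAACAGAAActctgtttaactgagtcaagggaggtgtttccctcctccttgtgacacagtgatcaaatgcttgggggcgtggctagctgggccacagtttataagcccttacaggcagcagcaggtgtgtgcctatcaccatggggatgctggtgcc
The Cd274 window held 1 match, TTTCGTTT on the opposite strand, beginning 175 bases before the start. Of the 7 members with a promoter in the RefSeq table, 4 had a match (Cd274, Pdcd1, Pdcd1lg2 and Cd96), while 23.9% of all 32544 promoters had one. The Rsad2 window held 2 matches, 1 on each strand. A longer letter pattern that was also searched had a match in 3.45% of all promoters. It was found in the windows of Rsad2, Ifih1, Gbp7, Trim34a and Stat2, which lead the tumor cluster described below, but not in that of Herc6. Neither the Cd274 window nor that of any other member held it. A match is a description of letters and not a bound site.

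In tumor-like cells Cd274 was low but higher in KO tumors in batch 2, where 1 cluster within the class, described below, also held a larger share in KO. It was at 3.26 CPM in WT against 3.38 CPM in KO in batch 1. Across batch 2 it lay at 2.86, 2.88, 3.09 and 1.21 CPM in WT 1, 3, 4 and 5, and at 4.46, 6.10, 3.76 and 3.46 CPM in the KO libraries 1, 2+3, 4 and 5+6. Every KO library of batch 2 lay above every WT library, and the lowest value was that of WT 5. Tumor-like cells of WT 5 had a median depth of 1233.5 UMIs, against 597 to 872 in the other batch 2 libraries. The part of depth in its value was not tested. Of the 12783 genes with at least 50 UMIs in these cells, 309 (2.42%) also had all KO libraries of batch 2 above all WT libraries, and 0.641% had them below. The WT mean was 2.66 CPM ± 0.827 (SD, n = 5) and the KO mean 4.23 CPM ± 1.13 (SD, n = 5), higher by 1.57 CPM (exact two-sided permutation p = 0.0143, the smallest that labels permuted within batch can give). It was 1 of 16 such comparisons of a member in a class. Without WT 5 the difference was 1.19 CPM (exact permutation p = 0.0571).

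The edgeR fit across genes gave Cd274 in tumor-like cells a log2 fold change of 0.63 with SE 0.29 (unadjusted p = 0.0434, adjusted p = 0.881). It called 0 of 11447 genes in these cells (0%), with 617 at an unadjusted p under 0.05 and 1 called by DESeq2, so Cd274 did not pass the test. Free RNA in barcodes with at most 50 UMIs had 19.0 CPM of Cd274 in batch 2 and 5.11 CPM in batch 1, above the tumor-like levels of 3.35 and 3.31 CPM. In batch 2 Cd274 in free RNA was highest in KO 2+3, at 31.4 CPM, the library with the highest tumor-like level. The other libraries of batch 2 ran from 14.9 to 21.3 CPM, with WT 5 at 17.8 CPM. Free RNA is only a part of the UMIs of a cell, and its part in the tumor-like level was not tested. Myeloid markers summed to 25.9 to 51.9 CPM in tumor-like cells of WT libraries and 32.8 to 46.9 CPM in KO, all 14 with UMIs, and their part in the difference was not tested.

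Among the tumor-like clusters, 1 stood out for Cd274. It held 5663 cells of batch 2 and was led by Gm44148, Usp18, Herc6, Rsad2, Dhx58, Stat2, Gbp7, Parp14, Trim34a and Ifih1, most of which are interferon-induced genes. It was singled out after the levels had been seen, so its values are given with no test. Cd274 was at 12.2 CPM in it (95% interval 9.29 to 15.8, 58 UMIs) and at 2.23 CPM in the other tumor-like cells of batch 2 (1.78 to 2.76, 84 UMIs). The 7 other tumor-like clusters of batch 2 ranged from 1.33 to 3.81 CPM. With coarser clustering the levels were 10.6 CPM inside and 2.76 CPM outside, and with finer clustering 11.1 and 3.38 CPM. Free RNA of batch 2 was at 19.0 CPM of Cd274, and its part in the level inside the cluster was not tested. Havcr2, at 48.2 CPM in free RNA, was at 2.95 CPM inside the cluster and 2.94 CPM outside. These Havcr2 values are no test of free RNA for Cd274.

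By library, Cd274 inside the cluster was at 11.9, 8.67, 11.9 and 0 CPM in WT 1, 3, 4 and 5. In KO it was at 12, 18.9, 16.9 and 11.4 CPM in the KO libraries 1, 2+3, 4 and 5+6. The level inside was above that outside in 7 of 8 libraries, WT 5 with no UMI inside being the exception. Outside the cluster the level was 1.93, 2.27, 1.96 and 1.29 CPM in WT and 3.24, 3.95, 1.47 and 2.32 CPM in KO, where the groups overlapped. The cluster held 8.64%, 8.83%, 10.5% and 5.81% of the tumor-like cells in WT 1, 3, 4 and 5, and 12.6%, 13.1%, 13.6% and 11.6% in the KO libraries. This cluster, singled out after the levels had been seen, thus held a larger share of the tumor-like class in KO. Shares of the other clusters are not given. The part of the cluster's share in the Cd274 difference was not tested.

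The other 7 members did not stand out in the cluster. Pdcd1lg2 was at 0.211 CPM inside (1 UMI) and 0.583 CPM outside, and Vsir at 5.06 and 4.35 CPM. Some of the listed regulators of Cd274 were higher inside, with Irf1 at 31.4 against 14.3 CPM and Jak2 at 109 against 65.0 CPM. Others had overlapping 95% intervals. Inside and outside, Ifngr2 was at 111 and 103 CPM and Jak1 at 194 and 182 CPM. Cmtm6 was at 12.7 and 10.3 CPM and Cmtm4 at 192 and 182 CPM. The interferon-gamma receptor gene Ifngr1 was at 14.6 CPM in both. The cluster was built from gene levels and led mostly by interferon-induced genes, so these levels describe it. The 14 myeloid markers summed to 37.8 CPM inside and 32.1 CPM outside. Inside the cluster they were at 25.4 to 35.8 CPM in WT libraries and 36.6 to 57.3 CPM in KO libraries, with no overlap, and their part in the Cd274 level there was not tested. Median depth was 779 and 705 UMIs per cell.

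**Figure D2:**
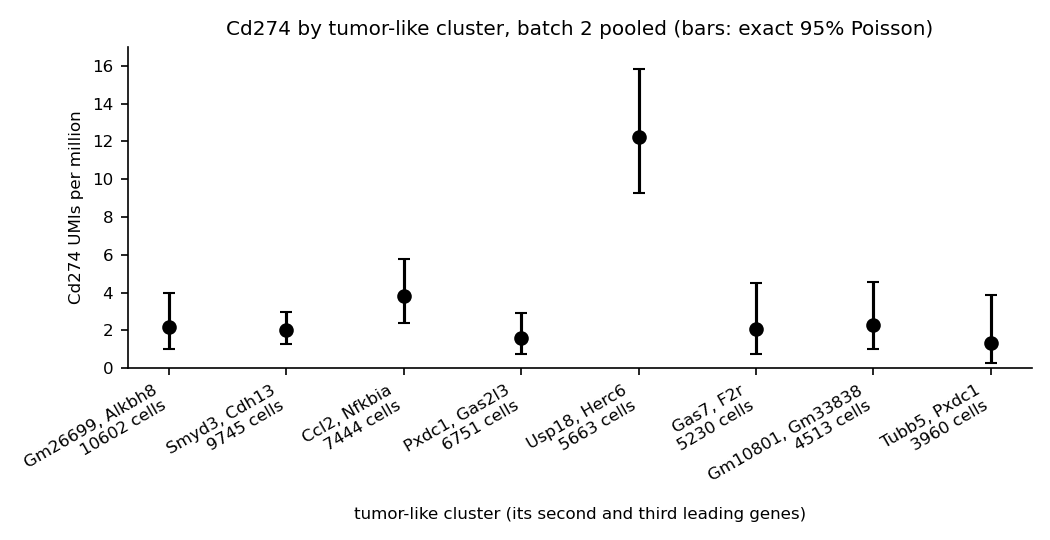
Cd274 level (CPM, pooled cells) in the tumor-like clusters, with 95% intervals for counting error. The cluster led by Rsad2 and Usp18 stands at 12.2 CPM and the other clusters of batch 2 between 1.33 and 3.81 CPM.

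In myeloid-like cells, named from 14 monocyte and macrophage markers, Cd274 was at 124 CPM in WT against 131 CPM in KO in batch 1. The batch 2 libraries were at 88.1, 180, 217 and 136 CPM in WT, and at 59.4, 191, 58.3 and 208 CPM in KO. The KO libraries held both the lowest values and 2 of the 3 highest. The KO mean was lower by 19.3 CPM (130 against 149 CPM, exact permutation p = 0.629). With a library left out the difference lay between −38.9 CPM (without KO 5+6) and −0.194 CPM (without KO 4), and it was −68.2 CPM without both pooled KO libraries (exact permutation p = 0.133). The change in tumor-like cells was larger than that in myeloid-like cells by 0.47 on the log2(CPM + 10) scale, and a test of this difference did not separate them (exact permutation p = 0.257). The 10 CPM added is above the tumor-like means of 2.66 CPM in WT and 4.23 CPM in KO, which shrinks the change there. The test can therefore say little about a difference between the classes.

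Dendritic-like cells had the highest mean Cd274, which rested on batch 1 with 12 cells in each library, and they exceeded myeloid-like cells in 6 of 10 libraries. Cd274 was at 859 CPM in WT against 373 CPM in KO in batch 1. For batch 2 the values were 127, 107, 0 and 223 CPM in WT, and 0, 228, 109 and 89.6 CPM in KO. The pooled level was 577 CPM in batch 1 (24 UMIs in 24 cells) and 136 CPM in batch 2 (12 UMIs in 179 cells), and the groups overlapped in batch 2. The difference of means was −103 CPM (exact permutation p = 0.429), most of it from the WT library of batch 1. With batch 2 alone it was −7.31 CPM. At Leiden resolution 2, where 4 libraries per group entered, it was −200 CPM (491 CPM in WT, 291 CPM in KO, exact permutation p = 0.25). All 8 tumor markers had UMIs in this class, summing to 1202 to 16386 CPM in WT and 1242 to 17465 CPM in KO, and their part in the Cd274 level was not tested. In these cells edgeR called 0 of 125 genes (0%), with 7 at an unadjusted p under 0.05 and 0 called by DESeq2, and no member had enough counts to enter.

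Pdcd1lg2 encodes PD-L2, which is found mostly on dendritic cells and macrophages. In dendritic-like cells it was at 286 CPM in WT against 82.8 CPM in KO in batch 1. The libraries of batch 2 stood at 223 CPM in WT 5 and 0 in the other WT libraries, and at 151, 0, 109 and 179 CPM in KO. The means were 102 CPM in WT and 104 CPM in KO (difference 2.62 CPM, exact permutation p = 1). Neither ligand had groups that were apart in dendritic-like cells of batch 2. Of 309 genes with at least 50 UMIs there, 0.647% had KO above and 0.647% KO below WT. Both ligands were under this limit, Cd274 with 12 and Pdcd1lg2 with 7 UMIs, so these shares are not a like comparison. In myeloid-like cells it lay between 0 and 51.4 CPM in WT and between 0 and 29.7 CPM in KO, with a difference of −4.26 CPM (exact permutation p = 0.743). In tumor-like cells no library was above 1.05 CPM, below the 14.9 CPM of free RNA in batch 2.

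Myeloid-like cells also carried the receptors Havcr2 and Vsir. Havcr2 was at 98.9 CPM in WT against 159 CPM in KO in batch 1. Batch 2 gave 382, 719, 217 and 624 CPM in WT, and 654, 988, 447 and 568 CPM in KO. The highest library was KO and the lowest WT, but the groups overlapped. The log2 fold change was 0.44 with SE 0.20 (edgeR unadjusted p = 0.0418, adjusted p = 0.889). In the difference of mean CPM, 155, the exact permutation p was 0.271. Without KO 2+3 the log2 fold change was 0.25 (edgeR unadjusted p = 0.246) and the difference 68.5 CPM (exact permutation p = 0.543). Without WT 4 the difference was 82.7 CPM.

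In batch 2 no member had all KO libraries on one side of all WT libraries in myeloid-like cells. Of 1837 genes with at least 50 UMIs there, 1.8% had KO above and 1.14% KO below WT. Among the members only Havcr2, with 288 UMIs, and Cd274, with 62, reached this limit. In these cells edgeR called 1 of 1136 genes (0.088%), and DESeq2 also called 1. The gene called by edgeR was Pvt1, one of the tumor markers, with a log2 fold change of −0.97 (SE 0.16, adjusted p = 0.000878). The 8 tumor markers together were at 2588 to 4142 CPM in WT and 2010 to 4280 CPM in KO in this class, and their part in the Havcr2 difference was not tested. The change of Havcr2 in myeloid-like cells was above that in T-like cells by 0.58 on the log2(CPM + 10) scale, with no separation between the classes (exact permutation p = 0.214).

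Vsir in myeloid-like cells was at 130 CPM in WT against 121 CPM in KO in batch 1. In batch 2 it was at 58.7, 0, 0 and 40.7 CPM in WT, and at 59.4, 15.9, 58.3 and 56.8 CPM in KO. The KO mean was higher by 16.5 CPM, within the spread (exact permutation p = 0.243). In tumor-like cells, where Vsir was at 4.80 CPM ± 1.09 (SD, n = 10), the log2 fold change was 0.05 with SE 0.21 (edgeR adjusted p = 0.981).

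The batches differed in opposite ways for these receptors. Pooled Havcr2 was at 130 CPM in batch 1 and 687 CPM in batch 2 in myeloid-like cells, and at 143 and 663 CPM in T-like cells. Pooled Vsir was at 126 CPM in batch 1 and 35.8 CPM in batch 2 in myeloid-like cells. Median depth of these cells was 2506 and 345 UMIs. Each batch held both groups, and the comparisons of WT and KO were made within batch.

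**Figure D3:**
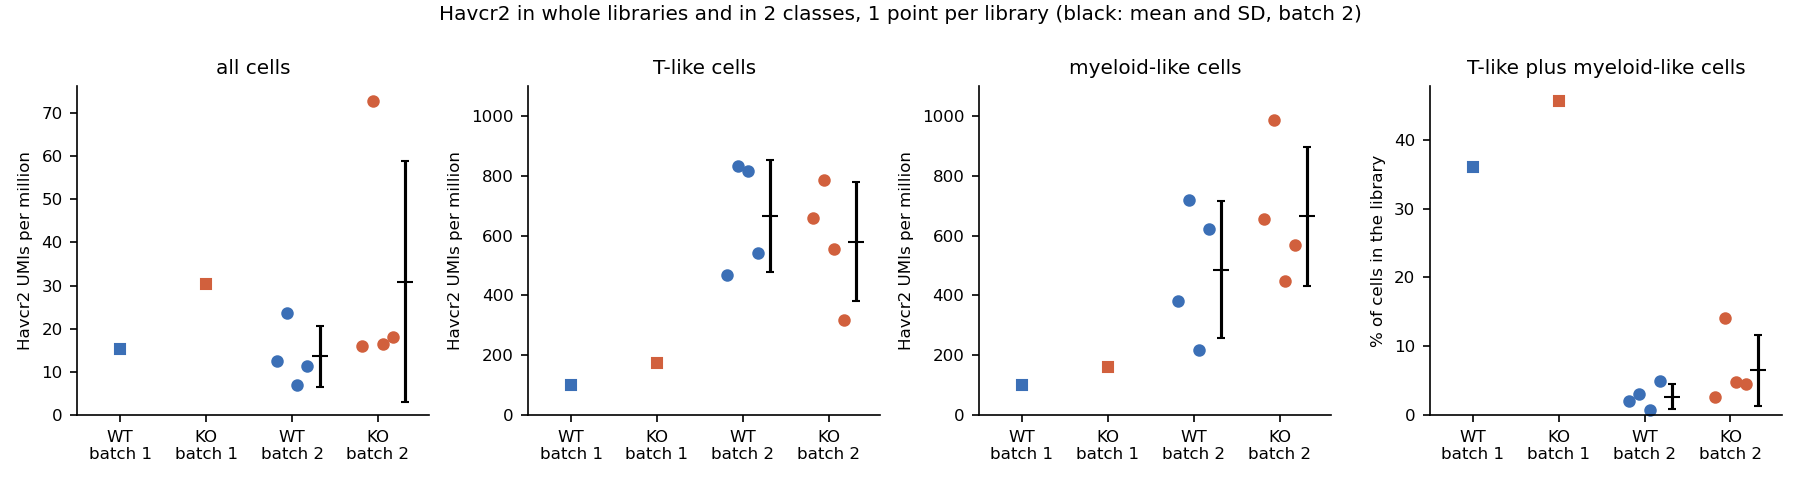
Havcr2 level (CPM) per library in T-like and myeloid-like cells, by batch and group. All libraries of batch 1 lie at or below 173 CPM, all of batch 2 at or above 217 CPM, and WT and KO overlap in both classes.

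Over whole libraries, where fewer cells of a type and less RNA per cell cannot be told apart, the 6 members tested by edgeR had positive values in KO against WT, and none passed. Havcr2 was at 15.2 CPM in WT against 30.4 CPM in KO in batch 1. Across batch 2 it lay at 12.5, 23.6, 6.95 and 11.5 CPM in WT, and at 15.9, 72.8, 16.6 and 18.2 CPM in KO. KO 2+3 was far above the rest. The log2 fold change was 1.08 with SE 0.40 (edgeR adjusted p = 0.488). Without KO 2+3 it was 0.42. Without a filter on low counts it was 1.05 with an adjusted p of 2.77e-07, where 242 genes were called, but without both the filter and KO 2+3 it was 0.38 (adjusted p = 0.685). The other changes were 0.91 for Lag3 (SE 0.31, adjusted p = 0.462), 0.86 for Tigit (SE 0.34, adjusted p = 0.512), 0.45 for Cd274 (SE 0.25, adjusted p = 0.611), 0.29 for Pdcd1lg2 (SE 0.36, adjusted p = 0.865) and 0.18 for Vsir (SE 0.16, adjusted p = 0.827). edgeR called 0 of 12450 genes (0%), with 1102 at an unadjusted p under 0.05 and 2 called by DESeq2.

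T-like cells were 0.372% to 4.61% of cells in WT libraries and 1.23% to 7.90% in KO libraries. KO 2+3, with the most T-like cells, also had the highest whole-library level of Havcr2, Tigit, Lag3 and Cd96. Their part in the whole-library differences was not tested. Within T-like cells of batch 2, KO 2+3 lay inside the range of the other 7 libraries for all 6 receptors.

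Of 63 other genes of the pathway, those with enough counts passed the test in no class. In T-like cells 12 were tested, 0 rose and 0 fell. The costimulatory receptor gene Tnfrsf9 had a log2 fold change of 0.06 (SE 0.19, edgeR adjusted p = 0.988) and Stat3 of 0.19 (SE 0.19, adjusted p = 0.977). In myeloid-like cells 7 were tested, with 0.01 for Ifngr2 (SE 0.19, adjusted p = 0.996) and 0.09 for Cd86, a ligand of CTLA-4 and CD28 (SE 0.20, adjusted p = 0.996). In dendritic-like cells 2 were tested, Jak2 at −0.07 (SE 0.38) and Stat3 at −0.07 (SE 0.35), both with adjusted p = 0.991.

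In tumor-like cells 34 of the pathway genes were tested and 0 passed in either direction. Ctla4, an inhibitory receptor gene of T cells at low level there, had a log2 fold change of 0.50 (SE 0.23, edgeR unadjusted p = 0.0410, adjusted p = 0.881). Of the 10 regulators of Cd274 in the list, 5 had positive values. Of the 9 tested ligands of checkpoint and costimulatory receptors, 7 were positive, with a median of 0.18. In whole libraries 46 were tested and 0 passed, and the smallest p-values were those of Selplg, a ligand of VISTA, at 1.04 (SE 0.24, adjusted p = 0.450), Cd226, the costimulatory counterpart of TIGIT, at 1.33 (SE 0.34, adjusted p = 0.450), and the T cell transcription factor genes Tbx21 and Tox.

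The genes whose levels over 13 points of cell class and batch were most like each member were ranked by Pearson correlation, and the points share libraries and depth. For Pdcd1 these were Nkg7, Gzmc and Trbc1 (r = 1.00, 1.00 and 1.00), genes of cytotoxic lymphocytes and the T cell receptor. For Cd96 they were Il2rb, Il18r1 and Cd3e, each at r = 0.98. For Tigit they were Ctla4, Gm2682 and Icos, each at r = 0.97. Outside T-like cells no point was above 0.479 CPM of Pdcd1, 4.04 CPM of Cd96 or 11.3 CPM of Tigit. The correlations of these 3 members therefore rest mostly on the T-like points of the 2 batches. Dendritic-like cells of batch 1 (24 cells), at 96.1 CPM of Pdcd1, were not among the points. Lag3 was most like Itgb8 (r = 0.92), Tcf7 (r = 0.90) and Fan1 (r = 0.89).

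Of the members found in myeloid-like cells, Havcr2 was most like Fyb (r = 0.94), Gm2245 (r = 0.94) and Ppm1h (r = 0.92), and Vsir was most like Ly6c2 (r = 0.93), Itgax (r = 0.91) and Lilrb4a (r = 0.91), genes of monocytes and dendritic cells. Cd274 was most like Nckap1l (r = 0.93), Rgs10 (r = 0.91) and Cd86 (r = 0.91). Pdcd1lg2 was most like Rassf2 (r = 0.92), Rel (r = 0.91) and Sp110 (r = 0.88).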

How the data were processed

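The deposited matrices hold UMI counts for each gene in each barcode, which the authors made with Cell Ranger (version 7.1.0 per the submitters' processing notes) on mm10, before empty droplets were removed and without normalization. Groups, batches and pooling were read from the labels, and the supplementary methods were consulted. A barcode was kept as a cell if it had 200 to 7000 genes and its mitochondrial share was 10% or less.

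Clustering used scanpy 1.11.5 and leidenalg 0.10.2 under Python 3.11.15 (Leiden resolution 1, 15 neighbours, 30 principal components of 2000 variable genes), with the tumor-like and other cells clustered again separately. Members, Actb and mitochondrial genes were kept out. A cluster was named from at least 3 markers that were 2-fold higher than in the other clusters, with 20 CPM added, and detected in 2% of its cells. These limits were chosen with the clusters in view, and the classes are not the authors' annotation. No doublet caller was run. A cluster mixing tumor and T cell markers (893 cells) was kept apart from the T-like class.

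UMIs summed per library and class were tested with edgeR 4.0.16 in R 4.3.3 (quasi-likelihood test with a batch term, TMM, genes kept by filterByExpr, Benjamini-Hochberg adjustment over all genes tested). A library entered a class with 10 or more cells of it. For single members the difference of mean CPM was tested exactly, two-sided, by permuting labels within batch, over 16 pairs of a member and a class and 140 arrangements. No adjustment over these 16 was made. Libraries are separate tumors or pools of 2, and p-values measure the spread between them. Poisson 95% intervals and the limit of 3 counts for a value of 0 cover counting error only. The edgeR script was tested on simulated data.

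The members and the gene lists were chosen with earlier results of these data known. Of the pathway list, the genes named in a class were those with an unadjusted p under 0.05, at most 4 by smallest p, and otherwise the 2 with the most UMIs. A gene of this list that the rule would name is not reported here. For each member the 3 genes of highest correlation were named. Gene positions follow the GENCODE annotation on GRCm38, and promoters are from RefSeq on GRCm38.p6. The alternatives were DESeq2 1.42.0, no filter on low counts, no TMM factors, batch 2 alone, each library and the pooled KO libraries left out, a replicate block, Actb kept, at least 500 UMIs per barcode and Leiden resolutions of 0.5 and 2. The authors' integration, clustering and cell annotation were not used here.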

Additional observations from a re-analysis of the deposited data

Results flagged for a closer look

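The gap of an extreme library to its nearest neighbour was set against the range of its group in 32 groups of 5 libraries, and 4 libraries stood apart. Chance alone flags about 1 in 20 such groups. Pdcd1 in T-like cells of the KO library of batch 1 was at 158 CPM, with the next KO library at 42.5 CPM. Cd274 in tumor-like cells of WT 5 was at 1.21 CPM, with the next WT library at 2.86 CPM. Cd274 in dendritic-like cells of the WT library of batch 1 was at 859 CPM, with the next WT library at 223 CPM. Vsir in tumor-like cells of the WT library of batch 1 was at 7.20 CPM, with the next WT library at 4.54 CPM. The 3 high values all come from batch 1, which holds 1 library of each group.

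Clusters that received no class name also held members above their level in tumor-like cells of batch 2. A cluster of 324 cells with dendritic and myeloid markers side by side had 795 CPM of Havcr2, 88.4 CPM of Cd274 and 68.7 CPM of Pdcd1lg2. A cluster mixing tumor and T cell markers had 44.3 CPM of Havcr2, 23.3 CPM of Tigit, 10.5 CPM of Cd274, 9.33 CPM of Pdcd1lg2, 5.83 CPM of Cd96 and 4.66 CPM of Pdcd1. Of the other unnamed clusters, the first had 77.9 CPM of Havcr2 and 26.4 CPM of Cd274, and the next had 67.2 CPM of Havcr2 and 19.2 CPM of Cd274. Free RNA in barcodes with at most 50 UMIs stood at 48.2 CPM of Havcr2 and 19.0 CPM of Cd274 in batch 2, near these last values.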

How the results depend on the processing

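Depth was the main limit: most members had under 100 UMIs per class, so that a value of 0 or a change of sign often turned on 1 UMI, and edgeR could test 1 of the 6 receptors in T-like cells. The number of genes called in myeloid-like cells, 1, was 15 without a filter on low counts, 2 without TMM factors, 3 at Leiden resolution 0.5 and 1 to 3 with a library left out. In tumor-like cells, 0 became 1 with DESeq2 and 36 without the filter. In all cells, 0 became 2 with DESeq2, 242 without the filter and 0 to 1 with a library left out. The log2 fold change of Havcr2 in T-like cells turned negative with DESeq2 (−0.0073), batch 2 alone (−0.058) and Leiden resolution 0.5 (−0.0096) or 2 (−0.024). The median of all genes moved to 0.43 there without the filter. Havcr2 in tumor-like cells turned to −0.0073 without the filter and to −0.31 without the pooled KO libraries, where Vsir turned to −0.018. Without those libraries the difference of means was −7.42 CPM for Vsir in T-like, 1.45 CPM for Pdcd1lg2 in myeloid-like, −1.38 CPM for Pdcd1lg2 in dendritic-like and −0.466 CPM for Havcr2 in tumor-like cells. It was −0.780 CPM for Lag3 in T-like cells with batch 2 alone and −3.95 CPM for Pdcd1lg2 in dendritic-like cells with Actb kept. The level of Havcr2 in tumor-like cells, 2.46 CPM, was 5.37 CPM at Leiden resolution 2. The cause was not tested.

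With a library left out, log2 fold changes ranged from −0.18 to 0.25 for Havcr2 in T-like (−0.090 without WT 1), −0.26 to 0.29 for Havcr2 in tumor-like (−0.064 without KO 2+3, −0.10 without KO 5+6) and −0.035 (without KO 5+6) to 0.20 for Vsir in tumor-like cells. Differences of means (CPM) ranged in T-like cells from −0.851 to 23.5 for Lag3, −103 to 17.8 for Havcr2, 40.6 to 83.6 for Tigit (exact permutation p from 0.0429 to 0.229) and −2.25 to 17.2 for Vsir (−0.0135 without WT 3). In tumor-like cells they ranged from 1.10 to 1.93 for Cd274 (exact permutation p from 0.0143 to 0.0571, the latter with 1.19 CPM without WT 5), −0.387 to 0.570 for Havcr2 (−0.0930 without KO 2+3, −0.158 without KO 5+6) and −0.0490 to 0.764 for Vsir. For Pdcd1lg2 they ranged from −9.45 to 3.81 in myeloid-like and −21.9 to 54.1 in dendritic-like cells (−18.4 without WT 1).

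WT 1 and KO 1, and WT 4 and KO 4, share a replicate number. Their deviations from the group means had correlations of −0.03 to −0.30 over classes. These cannot settle whether the numbers pair the libraries, and the labels do not say. With the replicate number as a block edgeR called 0 genes in T-like, dendritic-like, tumor-like and all cells and 1 in myeloid-like cells, and Cd274 in tumor-like cells had a log2 fold change of 0.64 (adjusted p = 0.919).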
